A study of Mus musculus with 16 samples.

Results

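Mitochondrial ribosomal protein genes, the nuclear genes whose platform symbol starts with Mrpl or Mrps and a digit, were followed across neural crest stem cells that had or had not been primed to differentiate. The array measured 76 of them, 47 Mrpl and 29 Mrps, among 18194 genes with a probe set that carries a single symbol. They had 156 such probe sets, and each gene was read from the one with the highest mean log2 intensity over the 16 arrays. The choice used brightness only and no difference between groups.

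The neural crest is a migratory population of the vertebrate embryo that gives rise to peripheral neurons, glia and mesenchymal derivatives. RNA of mouse primary crest material was measured in 4 groups of 4 Affymetrix arrays. The Glia, Autonomic and Mesenchymal groups held neural crest stem cells exposed to instructive growth factors and labelled as primed to glia, to neurons and to mesenchyme, and the NCSCs group held migratory stem cells that were not primed. All groups were grown in medium for neural crest stem cells. The treatment label names growth factors for every sample, NCSCs included, and only the cell type label separates the groups. The sources used here do not give the factors, the length of exposure or the age of the embryos, and no genotype, strain or transgene is named. The labels do not say that replicates came from separate embryos or cultures, so the p-values speak to the spread among these samples alone, and that spread may be technical. In bulk RNA, fewer cells of a type and less RNA per cell cannot be told apart.

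Mitochondria make a small set of respiratory chain subunits on ribosomes of their own. The RNAs of these ribosomes come from mitochondrial DNA, whereas every protein of the large and small subunit is encoded in the nucleus, made in the cytosol and imported. Some of the proteins descend from bacterial ribosomal proteins and others were added in the mitochondrial lineage. Factors named for control of nuclear genes for mitochondrial proteins include NRF1, the ETS factor GABP, YY1 and MYC.

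Promoters of 67 of the 76 genes were found in the RefSeq table for GRCm38.p6. They made 73 windows from 250 bases before to 50 bases after a start listed for the gene. Each window, and those of all 32851 promoters in the table, was searched on both strands for 4 letter strings. The NRF1 string GCGCANGCG was in 20.5% of the mitoribosomal promoters, against 6.25% of all promoters. The ETS string CCGGAAG was in 34.2%, against 8.86%, and the YY1 string AAGATGGCG was in 11.0%, against 1.4%. The E-box CACGTG bound by MYC was in 9.59%, against 7.15%. The 7 mitoribosomal windows with the E-box belonged to 5 genes. A further set was the 10376 promoters whose GC content lay in the middle 50% of that of the mitoribosomal ones. There the shares were 8.96% for NRF1, 13.9% for ETS, 2.24% for YY1 and 9.17% for the E-box. A match describes the letters and does not show that a factor was bound.

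The promoters of 4 genes are printed from 250 bases before to 30 bases after the start, with the matched strings in capitals. They were chosen after the values were seen. Mrps18c is the 1 gene that passed the test, Mrpl17 and Mrpl52 are genes with large differences whose arrays did not overlap, and Mrpl36 carries a YY1 string. The Mrps18c promoter lies on the plus strand at chr5:100798509-100798788, with an E-box and, a base further on, an ETS string on the other strand. The Mrpl17 promoter lies on the minus strand at chr7:105811058-105811337 and has an ETS and a pair of NRF1 strings. The Mrpl36 promoter, on the plus strand at chr13:73330759-73331038, has an E-box and a YY1 string on the other strand. Mrpl36 itself spans chr13:73328503-73332178, so this window belongs to a start inside the gene and not at its outer end. The Mrpl52 promoter, on the plus strand at chr14:54426659-54426938, has the ETS string at both capitalised places on the other strand. None of these strings overlaps another, and all 4 sequences are RefSeq's, build GRCm38.p6.
Mrps18c: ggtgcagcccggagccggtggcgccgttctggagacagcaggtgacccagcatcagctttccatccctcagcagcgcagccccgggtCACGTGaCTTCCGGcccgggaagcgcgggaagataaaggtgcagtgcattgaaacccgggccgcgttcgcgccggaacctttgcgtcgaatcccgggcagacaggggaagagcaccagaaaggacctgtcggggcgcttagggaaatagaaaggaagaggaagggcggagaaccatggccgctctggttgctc
Mrpl17: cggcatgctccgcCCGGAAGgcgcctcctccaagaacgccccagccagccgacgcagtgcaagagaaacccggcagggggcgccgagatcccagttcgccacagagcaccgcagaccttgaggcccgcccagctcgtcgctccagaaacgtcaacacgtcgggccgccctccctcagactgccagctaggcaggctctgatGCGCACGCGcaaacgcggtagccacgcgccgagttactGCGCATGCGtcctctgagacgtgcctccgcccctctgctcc
Mrpl36: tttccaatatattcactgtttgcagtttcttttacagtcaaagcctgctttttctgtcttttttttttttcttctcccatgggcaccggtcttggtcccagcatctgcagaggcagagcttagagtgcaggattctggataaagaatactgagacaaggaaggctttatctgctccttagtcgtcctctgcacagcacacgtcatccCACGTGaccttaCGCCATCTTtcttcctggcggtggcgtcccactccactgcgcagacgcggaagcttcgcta
Mrpl52: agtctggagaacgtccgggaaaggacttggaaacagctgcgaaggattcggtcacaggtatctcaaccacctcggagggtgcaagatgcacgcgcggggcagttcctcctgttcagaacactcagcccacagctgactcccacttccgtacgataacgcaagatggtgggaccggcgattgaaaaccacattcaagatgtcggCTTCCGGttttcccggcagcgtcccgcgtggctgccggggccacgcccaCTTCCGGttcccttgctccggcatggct

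The median change against NCSCs was also taken for genes with and without a string. The 25 genes with the ETS string had medians of -0.34 in Glia, -0.29 in Autonomic and -0.52 in Mesenchymal arrays on the log2 scale. The 42 genes without it had -0.26, -0.09 and -0.30 in the same order of groups. The 15 genes with the NRF1 string had -0.27, -0.02 and -0.29, and the 52 without it had -0.33, -0.16 and -0.36. The 8 genes with the YY1 string had -0.35, -0.10 and -0.36, and the 59 without it had -0.31, -0.17 and -0.32. The 5 genes with the E-box had -0.31, -0.14 and -0.62, and the 62 without it had -0.32, -0.15 and -0.33. These are descriptions with no test.

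The deposited values are RMA intensities on a linear scale, and all levels below are their log2. All 76 genes lay above the median of all probe sets, which was 3.14. Their mean levels ran from 3.85 to 11.3 with a median of 7.11, and the Mrpl and Mrps genes had nearly the same median, 7.11 and 7.10. Brightness also depends on the probe, so the order of genes below is one of probe brightness and not of RNA amount. Mrpl39, a protein of the large subunit added in mitochondria, was brightest at 11.3, followed by Mrpl11, of the stalk base, at 9.65 and Mrpl52 at 9.31. Mrpl14, at the face that meets the small subunit, was dimmest at 3.85, then Mrpl54 at 4.25 and Mrpl27, near the peptidyl transferase centre, at 5.14. The median SD within groups was 0.51 for these genes, against 0.62 for the 9053 genes in the same brightness range.

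Array medians ran from 3.05 to 3.15, and Pearson correlations over all probe sets ran from 0.899 to 0.957 for arrays of the same group and from 0.904 to 0.958 for arrays of different groups. All 7 neural crest markers measured were above the overall median in every group. Of the 4 measured autonomic neuron markers, Phox2a, Gata3 and Th were below it in every group, the Autonomic arrays included. Hand2 was above it in every group, with group means from 3.91 to 4.03. All 4 endothelial markers were below it in every group. Of markers of other cell types, 2 of 4 for epithelium, 2 of 3 for neural tube, 1 of 3 for skeletal muscle and 0 of 4 for blood were above it in every group. Only 2 of the 4 blood markers were below it in every group. The other blood markers, Hba-x and Hbb-y, averaged 2.16 and 2.94 in Glia and 3.59 and 3.74 in Autonomic arrays. They averaged 4.42 and 5.23 in Mesenchymal and 5.24 and 4.36 in NCSCs arrays. The mean of the 4 glial markers was 5.11 ± 0.215 in Glia and 5.63 ± 0.240 in NCSCs arrays. The mean of the 5 smooth muscle markers was 8.10 ± 0.117 in Glia, 7.93 ± 0.856 in Autonomic, 7.46 ± 0.437 in Mesenchymal and 6.63 ± 0.783 in NCSCs arrays (SD, n = 4 each). The log2 ratio of the 3′ to the 5′ Gapdh control probe set, a measure of RNA and label quality, averaged 2.95 ± 0.391 in Glia, 2.85 ± 0.242 in Autonomic, 2.96 ± 0.222 in Mesenchymal and 2.35 ± 0.187 in NCSCs arrays. The same ratio for actin averaged -0.17 ± 0.0786 in Glia, -0.50 ± 0.284 in Autonomic, -0.28 ± 0.150 in Mesenchymal and -0.53 ± 0.158 in NCSCs arrays. The actin ratio was thus close in Autonomic and NCSCs arrays, and it was not used as a covariate. Xist, which is made from the inactive X chromosome, lay at 2.61 to 5.34 in Glia and 6.39 to 10.5 in NCSCs arrays, and in Autonomic and Mesenchymal arrays it spanned 3.15 to 10.6 and 2.68 to 11.2.

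The design sets primed cells against migratory stem cells that were not primed. The mean of the mitoribosomal genes was lower in Glia and Mesenchymal than in NCSCs arrays, while the median change in Autonomic arrays turned above 0 in 3 alternatives, with housekeeping centring, cyclic loess and the Gapdh ratio as a covariate. Mrps18c in Glia was the 1 gene whose change against NCSCs passed the test. The mean over the 76 genes was 6.89, 7.17, 6.98 and 7.14 in the Glia arrays. It was 7.09, 7.46, 7.27 and 6.88 in the Autonomic arrays and 7.02, 6.89, 6.89 and 7.13 in the Mesenchymal arrays. The NCSCs arrays had 7.44, 7.30, 7.15 and 7.40. All Mesenchymal arrays lay below all NCSCs arrays, Glia overlapped NCSCs by 1 array, and Autonomic held both the lowest and the highest of the 16 arrays. The group means were 7.05 ± 0.133 in Glia, 7.17 ± 0.251 in Autonomic, 6.98 ± 0.115 in Mesenchymal and 7.32 ± 0.127 in NCSCs arrays (SD, n = 4 each).

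The 9053 genes of the same brightness range also averaged less in primed arrays, 6.34 ± 0.0504 in Glia, 6.37 ± 0.0868 in Autonomic, 6.35 ± 0.0524 in Mesenchymal and 6.46 ± 0.0314 in NCSCs arrays. Relative to these genes on the same array, the mitoribosomal mean stood 0.70 ± 0.133 higher in Glia, 0.80 ± 0.172 higher in Autonomic, 0.63 ± 0.0701 higher in Mesenchymal and 0.86 ± 0.107 higher in NCSCs arrays. The Mesenchymal range of this difference, 0.56 to 0.72, met the NCSCs range of 0.72 to 0.98 at its edge, and the Glia and Autonomic ranges overlapped it. The 3′ to 5′ Gapdh ratio, the smooth muscle markers and, in Glia, Xist moved with the groups. The mean of the 4 blood markers was 2.36 ± 0.187 in Glia, 2.95 ± 1.07 in Autonomic, 3.62 ± 1.06 in Mesenchymal and 3.36 ± 1.01 in NCSCs arrays. That of the 7 neural crest markers was 7.27 ± 0.200, 6.62 ± 1.11, 7.71 ± 0.136 and 7.48 ± 0.509 in the same order of groups. Single crest markers differed in direction. In that order Ngfr averaged 7.20, 6.32, 9.39 and 9.07, Erbb3 9.49, 8.12, 9.67 and 8.52, and Sox10 7.59, 7.22, 8.84 and 7.85. The part of these cell type markers was not tested, and values with the Gapdh ratio or Xist as a covariate are given below.

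**Figure D1:**
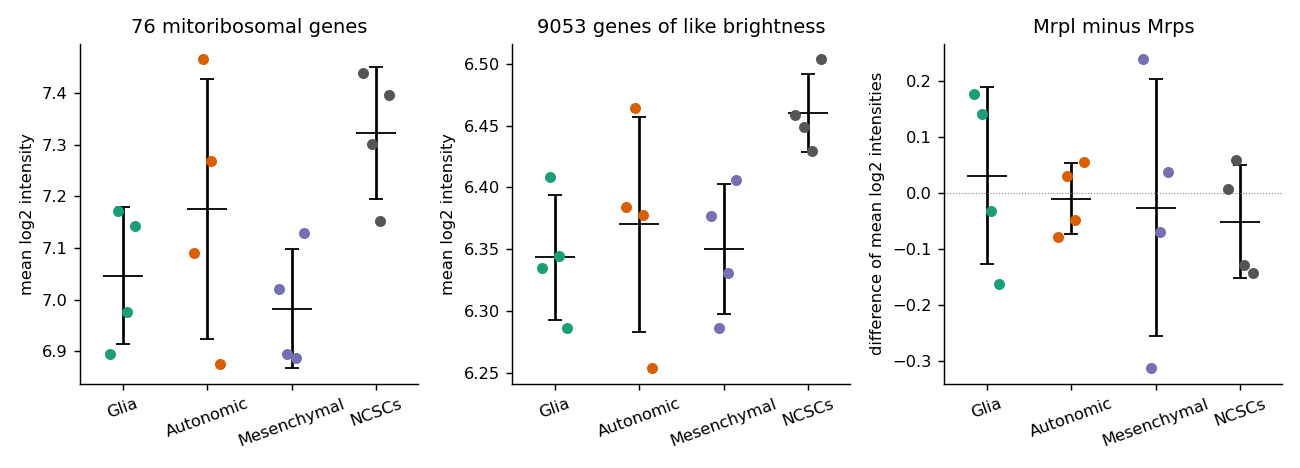
Each point is 1 array, with the group mean and SD (n = 4 arrays each) in black, for the Glia, Autonomic, Mesenchymal and NCSCs groups. The left panel plots the mean log2 intensity of the 76 mitoribosomal genes, the middle panel that of the 9053 genes of like brightness, and the right panel the Mrpl mean minus the Mrps mean of each array. The Mesenchymal arrays lie below the NCSCs arrays in the left panel, and the groups overlap in the right panel.

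By gene, the median log2 change against NCSCs was -0.32 in Glia, -0.14 in Autonomic and -0.34 in Mesenchymal arrays. The genes of like brightness had medians of -0.11, -0.08 and -0.11 in the same comparisons, and all 18194 genes had medians of -0.01, 0.00 and -0.01. Of the 76 genes, 56 were below 0 in Glia, 49 in Autonomic and 62 in Mesenchymal arrays. Centring on housekeeping genes gave -0.13 in Glia and -0.17 in Mesenchymal arrays, and cyclic loess gave -0.18 and -0.21. The Autonomic median was above 0 under both scalings, at 0.11 when each array was centred on housekeeping genes, a step that shifted the all-gene median by 0.25, and at 0.00489 with cyclic loess. It was -0.01 without Autonomic array 4 and -0.24 without Autonomic array 2. With the Gapdh ratio as a covariate the medians were -0.12 in Glia, 0.05 in Autonomic and -0.16 in Mesenchymal arrays, and with Xist as a covariate they were -0.32, -0.11 and -0.34.

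A total of 37 genes, 22 Mrpl and 15 Mrps, had a mean below NCSCs in all 3 primed groups. Only 5 were above it in all 3, namely Mrpl33, Mrpl52, Mrpl54, Mrps5 and Mrps21, and 34 were mixed. NCSCs had the highest group mean for 37 of the genes, against 12 for Glia, 18 for Autonomic and 9 for Mesenchymal. Mesenchymal had the lowest group mean for 34 genes, Glia for 23, Autonomic for 14 and NCSCs for 5. The 3 comparisons share the NCSCs arrays, so these counts are not independent.

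The large and small subunit did not separate. In Glia the median change was -0.25 over 47 Mrpl genes and -0.37 over 29 Mrps genes. In Autonomic arrays the medians were -0.13 and -0.15, and in Mesenchymal arrays -0.33 and -0.34. The difference between the Mrpl and Mrps means of an array averaged 0.03 ± 0.159 in Glia, -0.01 ± 0.0638 in Autonomic, -0.03 ± 0.23 in Mesenchymal and -0.05 ± 0.1 in NCSCs arrays, with all groups overlapping. Symbols do not always give the subunit: Mrps30 and Mrps18a sit in the large subunit of mammalian mitoribosome structures, and Mrps36 belongs to the 2-oxoglutarate dehydrogenase complex and not to the ribosome. With genes placed by structure, the 49 large-subunit genes had medians of -0.25 in Glia, -0.14 in Autonomic and -0.33 in Mesenchymal arrays, and the 26 small-subunit genes had -0.36, -0.10 and -0.39.

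Grouping by origin gave larger gaps than grouping by subunit. The 45 genes with a bacterial counterpart had median changes of -0.23 in Glia, -0.09 in Autonomic and -0.33 in Mesenchymal arrays. The 30 ribosomal proteins without one had -0.38, -0.24 and -0.53. Of these 30, 26 lay below 0 in Glia (86.7%), 22 in Autonomic (73.3%) and 26 in Mesenchymal arrays (86.7%). Of the 45 with a counterpart, 29 did so in Glia (64.4%), 26 in Autonomic (57.8%) and 36 in Mesenchymal arrays (80%). This is a description, with no test of the 2 sets against each other.

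**Figure D2:**
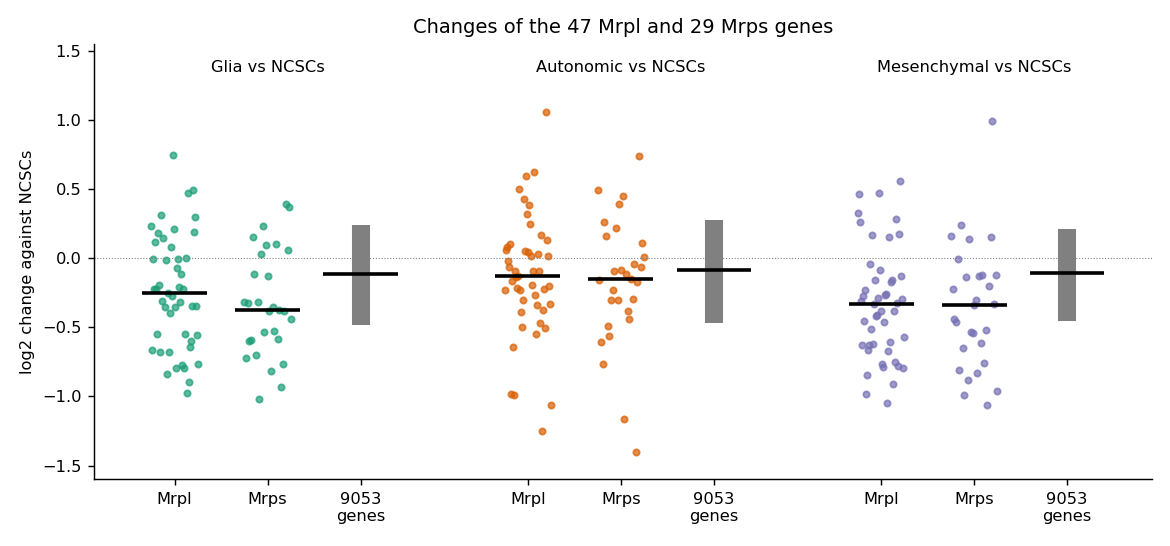
Each point is the log2 change of 1 gene against NCSCs in the Glia, Autonomic and Mesenchymal comparisons, with Mrpl and Mrps genes apart and a black line at the median. Grey bars give the middle 50% of the 9053 genes of like brightness with their median. Medians of both gene sets lie below 0, from -0.13 to -0.37, and the points of the sets overlap.

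In Glia against NCSCs, limma called 1 of the 76 genes lower (adjusted p under 0.05 over all genes), or 1.32%, and none higher. Over all genes the share called lower was 0.324% and the share called higher 0.187%. At an unadjusted p under 0.05 there were 7 mitoribosomal genes, or 9.21%, against 9.91% of all genes and 14.6% of those of like brightness. All 4 Glia arrays were below all 4 NCSCs arrays for 5 genes (6.58%), where 4.16% of all genes did so, and above them for 0 genes, where 3.02% of all genes did so. Of the 9053 genes of like brightness, 610 lay wholly below and 292 wholly above. Their share wholly below was thus close to that of the mitoribosomal genes.

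Mrps18c was the gene called. It encodes the small-subunit protein of the mitochondrial S18 family that takes the place of bacterial S18, and the gene lies at chr5:100798759-100804467 (GRCm38.p6, like all gene positions here). Its levels were 8.27, 8.69, 8.65 and 8.49 in Glia arrays. They were 9.41, 9.48, 9.21 and 9.16 in Autonomic arrays, 9.63, 9.22, 9.46 and 9.34 in Mesenchymal arrays, and 9.57, 9.40, 9.36 and 9.85 in NCSCs arrays. Every Glia array was below every array of the other groups. Mrps18c fell in Glia by 1.02 on the log2 scale against NCSCs, a fold of 0.49 (SE 0.16, 95% interval -1.36 to -0.68, limma adjusted p = 0.0114). Its SD within groups, 0.187, was the smallest of the 76 genes.

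The call of Mrps18c in Glia rested on modest margins. The adjusted p was 0.0501 without NCSCs array 4, 0.0664 with only the Glia and NCSCs arrays fitted, 0.172 with arrays centred on housekeeping genes, 0.126 with the Gapdh ratio and 0.103 with Xist as a covariate. The change itself stayed between -1.08 and -0.83 over all 28 alternatives, whose adjusted p ran from 0.0035 to 0.172. The gene has 1 probe set on the array, so no other probe set checks it.

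The family has 2 more genes, which were not called and of which neither is counted here as a bacterial counterpart. Mrps18b, a small-subunit protein, lies at chr17:35910380-35916440 and had 8.63, 8.70, 8.82 and 9.04 in Glia and 8.19, 8.20, 7.63 and 8.47 in Mesenchymal arrays. It had 8.50, 9.87, 9.59 and 7.29 in Autonomic and 8.97, 9.37, 9.13 and 8.99 in NCSCs arrays. All Mesenchymal arrays were below all NCSCs arrays, the log2 change was -0.99 (limma adjusted p = 0.6, SE 0.42), and Autonomic arrays scattered over both. Mrps18a, of the large subunit at chr17:46111004-46128908, ranged over 3.49 log2 units across the 16 arrays and its groups overlapped, with changes of -0.70 in Glia, -0.57 in Autonomic and -0.65 in Mesenchymal arrays (SE 0.66 each).

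**Figure D3:**
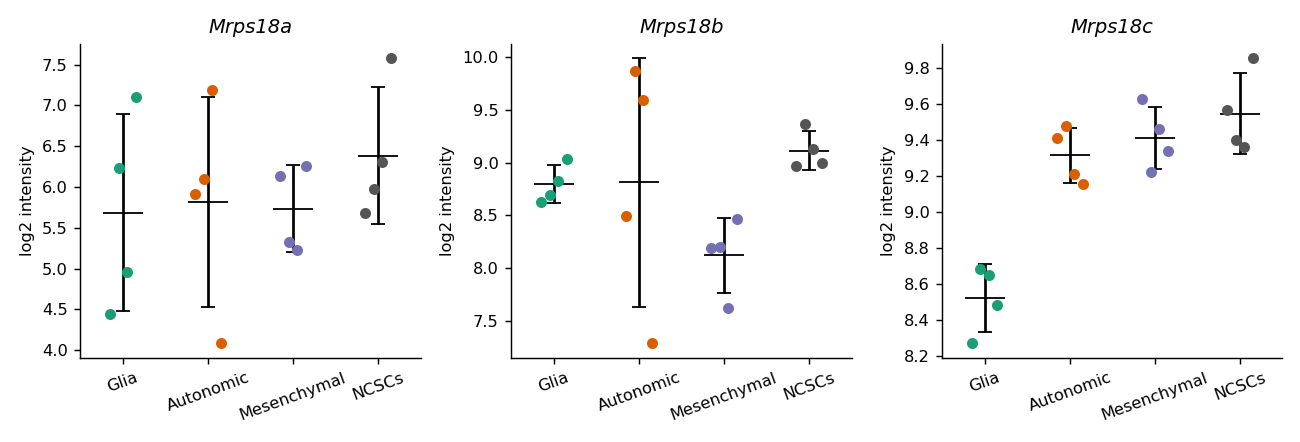
Log2 intensity of Mrps18a, Mrps18b and Mrps18c on each array of the Glia, Autonomic, Mesenchymal and NCSCs groups, with group mean and SD (n = 4 each). For Mrps18c the 4 Glia arrays, at 8.27 to 8.69, lie below the 12 others, at 9.16 to 9.85. Mrps18b is lowest in Mesenchymal and Mrps18a overlaps across groups.

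The other genes with the largest differences in Glia did not pass the test. Mrpl46, a large-subunit protein without a bacterial counterpart, had 6.25, 6.12, 4.47 and 5.65 in Glia arrays, against 6.33, 6.45, 7.15 and 6.46 in NCSCs arrays. The groups did not overlap, but the change of -0.97 had an SE of 0.66 (limma adjusted p = 0.692) and ran from -1.18 without Glia array 1 to -0.59 without Glia array 3. Mrps34, which the small subunit needs for its stability, had 4.80, 4.55, 4.84 and 5.85 in Glia, against 6.01, 5.90, 6.08 and 5.79 in NCSCs arrays. Glia array 4 reached the NCSCs range, and the change was -0.93 (SE 0.34, adjusted p = 0.33). Mrpl48 differed by -0.89 (SE 0.67). The largest differences upward were Mrpl33 at 0.75 (SE 0.29, adjusted p = 0.373), Mrpl52 at 0.50 (SE 0.36), Mrpl47 at 0.47 (SE 0.68) and Mrps5 at 0.40 (SE 0.48). With single arrays left out, Mrpl33 ran from 0.51 to 0.92 and Mrpl52 from 0.30 to 0.67. Mrpl47 ran from 0.21 to 0.73 and Mrps5 from 0.12 to 0.74.

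Mrpl27, Mrpl41 and Mrps31 were the remaining genes whose Glia arrays all lay below the NCSCs arrays, and they are named after their values were seen. Mrpl41 had 8.27, 7.69, 8.48 and 7.72 in Glia, against 8.82, 8.93, 8.86 and 8.63 in NCSCs arrays, a change of -0.77 (SE 0.29, adjusted p = 0.347). Mrpl46 also has a close neighbour among these genes. Its start and that of Mrps11, a small-subunit protein with a bacterial counterpart, lie 42 bases apart on chromosome 7, on opposite strands in the RefSeq promoter table. Mrps11 differed by -0.73 in Glia, -0.16 in Autonomic and -0.22 in Mesenchymal arrays, against -0.97, -0.47 and -0.91 for Mrpl46, and no change of either was called.

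In Autonomic against NCSCs, limma called 0 of the 76 genes in either direction, while 0.302% of all genes were called lower and 0.132% higher. At an unadjusted p under 0.05 there were 8 genes, or 10.5%, against 9.8% of all genes and 14.3% of those of like brightness. All Autonomic arrays were below all NCSCs arrays for 2 genes (2.63%), where 3.24% of all genes did so, and above them for 1 gene (1.32%), where 2.29% did so. The number of separated genes was thus no higher than over the whole array. Of the 9053 genes of like brightness, 478 lay wholly below and 222 wholly above.

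Mrps35, a small-subunit protein without a bacterial counterpart at chr6:147042728-147070906, had the largest difference. Its levels were 5.90, 6.64, 6.89 and 6.98 in Autonomic arrays, against 8.57, 7.31, 8.21 and 7.94 in NCSCs arrays. The groups did not overlap, and the change was -1.40 (SE 0.38, limma adjusted p = 0.158). Glia arrays, at 6.85 to 7.61, overlapped both. Mrpl15, which was named after its values were seen, was the other gene with all Autonomic arrays lower, at -0.98 (SE 0.36, adjusted p = 0.359). The next brightest of its 8 probe sets gave -0.49, -0.25, -0.75 and -1.08 in the same comparison. The one after them, at a mean level of 4.27, gave 0.59, so the size depended on the probe set.

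Mrpl48 differed by -1.25 (SE 0.67), Mrps26 by -1.17 (SE 0.74) and Mrpl9, whose bacterial counterpart is L9, by -1.06 (SE 0.46). Much of the Mrps26 difference came from 1 array: it had 7.09, 8.20, 7.62 and 3.70 in Autonomic arrays, against 7.89, 8.05, 7.86 and 7.49 in NCSCs arrays. Autonomic array 4 also had the lowest mean of all mitoribosomal genes, 6.88.

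Mrpl52 was the gene with all Autonomic arrays above NCSCs. Its levels were 9.73, 9.88, 10.2 and 9.91 in Autonomic arrays, against 8.70, 9.35, 8.80 and 8.66 in NCSCs arrays. The change was 1.06 (SE 0.36, adjusted p = 0.303). Glia and Mesenchymal arrays overlapped both groups. Its next brightest probe sets gave changes of 0.04 and 0.33 in the same comparison, so the size depended on the probe set. The other differences upward were Mrps5 at 0.74, Mrpl40 at 0.62 and Mrpl33 at 0.59, with SEs of 0.48, 0.49 and 0.29. Leaving out single arrays moved Mrps5 between 0.37 and 1.19, Mrpl40 between 0.33 and 0.87 and Mrpl33 between 0.36 and 0.76. Mrps5 also fell below 0 in 2 of 28 alternatives.

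In Mesenchymal against NCSCs, limma again called 0 of the 76 genes, against 0.0055% of all genes called lower and 0.0165% called higher. At an unadjusted p under 0.05 there were 12 genes, or 15.8%, all of them lower, against 7.7% of all genes and 10.6% of those of like brightness. All Mesenchymal arrays were below all NCSCs arrays for 5 genes (6.58%), where 3.29% of all genes did so, and above them for 1 gene (1.32%), where 2.41% did so. Of the 9053 genes of like brightness, 461 lay wholly below and 198 wholly above.

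Mrps34 had 5.09, 5.47, 3.81 and 5.18 in Mesenchymal arrays, against 6.01, 5.90, 6.08 and 5.79 in NCSCs arrays. The groups did not overlap, with a change of -1.06 (SE 0.34, limma adjusted p = 0.453). Mrpl17, which lies at the exit of the peptide tunnel in bacterial ribosomes and whose promoter is printed above, had 7.99, 7.32, 7.50 and 8.15 in Mesenchymal arrays, against 8.44, 8.71, 8.91 and 8.82 in NCSCs arrays. The groups did not overlap here either, with a change of -0.98 (SE 0.28, adjusted p = 0.37).

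Mrpl40 differed by -1.05 (SE 0.49, adjusted p = 0.648), with Mesenchymal arrays at 7.20, 5.18, 5.49 and 6.50, against 7.74, 6.26, 7.44 and 7.11 in NCSCs arrays, which overlap. Mrpl36, a large-subunit protein with a bacterial counterpart, and Mrps31 were the other genes with all Mesenchymal arrays lower. Mrpl36 had 4.72, 5.01, 4.91 and 5.43 in Mesenchymal arrays, against 5.74, 5.80, 5.87 and 5.71 in NCSCs arrays, a change of -0.76. Mrps31 was thus separated from NCSCs in both Glia and Mesenchymal arrays, at -0.58 and -0.76 (SE 0.30 each).

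Mrps5, a small-subunit protein with a bacterial counterpart, whose worm form is known from work on lifespan in Caenorhabditis elegans, was the gene with all Mesenchymal arrays higher. It had 7.39, 7.86, 7.32 and 6.98 in Mesenchymal arrays, against 6.87, 6.05, 6.59 and 6.07 in NCSCs arrays, a change of 0.99 (SE 0.48, adjusted p = 0.655). Its 5 probe sets disagreed. The next brightest gave 1.46 and the one after it -1.10. Mrpl54 at 0.56, Mrpl33 at 0.47 and Mrpl10, of the stalk base, at 0.46 were the next differences upward, with SEs of 0.41, 0.29 and 0.67. Leaving out single arrays moved Mrpl54 between 0.23 and 0.99 (NCSCs arrays 3 and 4), Mrpl33 between 0.24 and 0.64 (NCSCs arrays 3 and 2) and Mrpl10 between 0.0158 and 1.00 (Mesenchymal arrays 1 and 3).

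**Figure D4:**
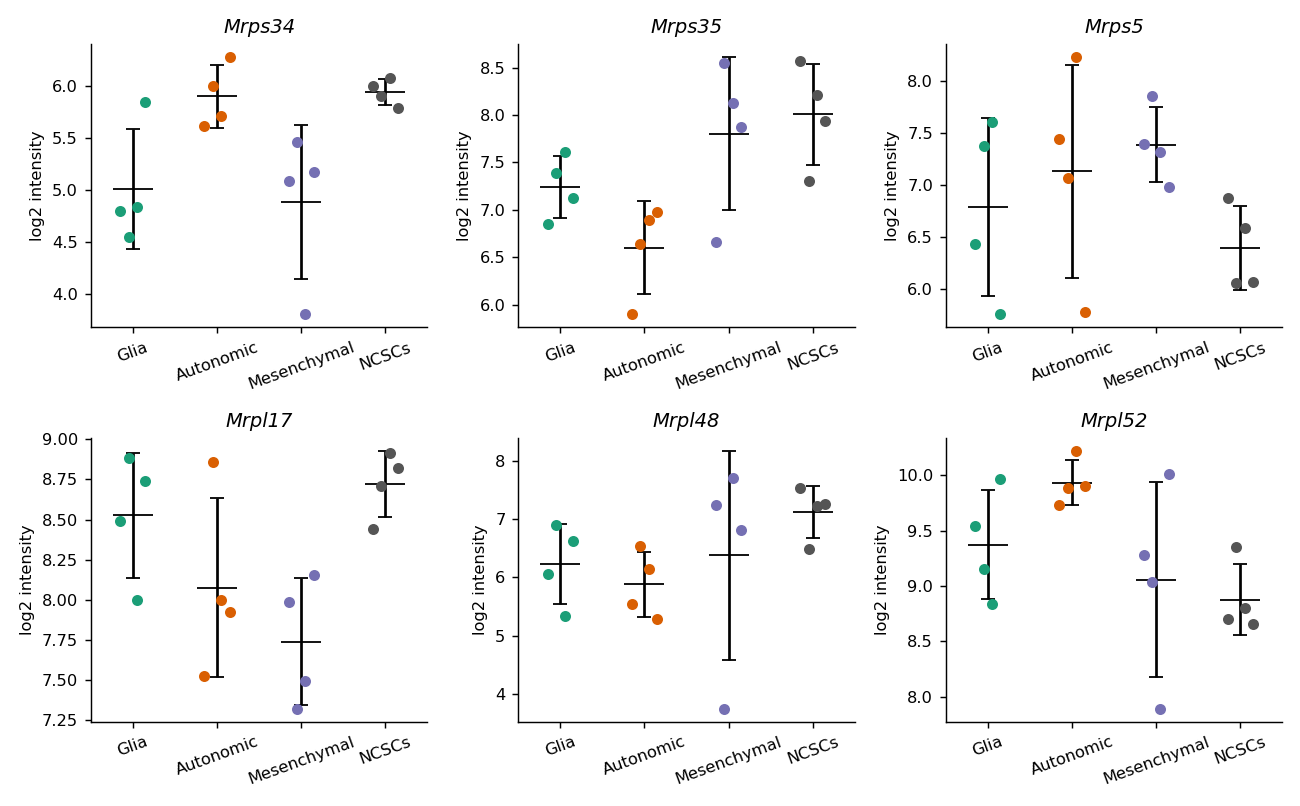
Log2 intensity of 6 genes with large differences on each array of the Glia, Autonomic, Mesenchymal and NCSCs groups, with group mean and SD (n = 4 each). Mrps35 is lowest in Autonomic, Mrps34 is low in Glia and Mesenchymal, Mrpl17 is lowest in Mesenchymal and Mrpl52 is highest in Autonomic. No change of these 6 genes was called.

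Other well-studied members had changes of either sign. Mrpl12, of the stalk that also binds mitochondrial RNA polymerase, differed by -0.23 in Glia, -0.02 in Autonomic and -0.31 in Mesenchymal arrays (SE 0.26 each). Mrps12, of the decoding centre, differed by -0.33, -0.61 and -0.44 (SE 0.21 each, smallest adjusted p = 0.314). Mrpl11 differed by -0.01, 0.08 and 0.26 (SE 0.23 each). Its 4 probe sets disagreed. The chosen one is of the cross-matching kind, and the next brightest, of the same kind, gave -0.07, 0.09 and 0.22. The other probe sets gave -0.36, -0.55 and -0.51 (mean level 8.03) and 1.23, -0.31 and 1.03 (mean level 4.90). Mrpl45, which tethers the ribosome to the inner membrane, differed by -0.00, -0.09 and -0.16 (SE 0.47 each). Mrpl44 differed by -0.55, 0.03 and -0.17 and Mrpl3 by 0.08, 0.43 and -0.41. Among small-subunit genes, Mrps7 differed by 0.37, 0.11 and -0.12, Mrps16 by 0.15, 0.16 and -0.81, and Mrps22 by -0.54, -0.30 and -0.53. Mrps30 differed by 0.11, -0.44 and -0.12 and Mrps36 by -0.38, -0.17 and 0.15. None of these was called.

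The 95% intervals show what the arrays could exclude. Their median half-width was 0.75 on the log2 scale, and they are not adjusted for the number of genes. The interval lay wholly within a 2-fold change either way for 27 genes in Glia, 36 in Autonomic and 28 in Mesenchymal arrays. A 4-fold change either way was outside the interval for 70, 72 and 70 genes. Among 56 further probe sets above the overall median, of 30 genes, 33 had the sign of the chosen probe set in Glia, 38 in Autonomic and 37 in Mesenchymal arrays.

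The primed groups were also set against each other. In Glia against Mesenchymal, Mrps18c was again the 1 gene called (1.32%), where 0.225% of all genes were called. It was lower in Glia by 0.89 on the log2 scale (log2 change -0.89, SE 0.16, limma adjusted p = 0.0352). This call was lost in 15 of 28 alternatives, 10 of which leave out 1 array, with adjusted p from 0.0116 to 0.242, while the change stayed between -0.95 and -0.80. In Glia against Autonomic, 0 genes were called, against 0.011% of all genes, and 5 (6.58%) had an unadjusted p under 0.05, against 6.24% of all genes. Mrps18c stood at -0.79 there (SE 0.16, adjusted p = 0.207), with all Glia arrays lower. In Autonomic against Mesenchymal, limma called 0 genes, against 0.346% of all genes, and 12 (15.8%) had an unadjusted p under 0.05, 10 of them higher in Autonomic, against 8.23% of all genes and 12.3% of those of like brightness.

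The medians of the 76 genes between primed groups were -0.14 for Glia against Autonomic, 0.06 for Glia against Mesenchymal and 0.23 for Autonomic against Mesenchymal, where the genes of like brightness had -0.02, 0.01 and 0.02. When single arrays were left out, that of Glia against Autonomic ran from -0.19 without Autonomic array 4 to -0.0445 without Autonomic array 2, that of Glia against Mesenchymal from -0.01 without Glia array 4 to 0.19 without Glia array 1, and that of Autonomic against Mesenchymal from 0.09 without Autonomic array 2 to 0.32 without Autonomic array 4. Mrpl40 had the largest difference, 1.67 (SE 0.49, limma adjusted p = 0.251), between Autonomic arrays at 8.20, 7.94, 7.90 and 7.01 and Mesenchymal arrays at 7.20, 5.18, 5.49 and 6.50. The lowest Autonomic array lay below the highest Mesenchymal array.

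Other genes of mitochondrial translation were described by lists. Of the 4 measured mitoribosomal proteins with other symbols, all were above NCSCs in Autonomic arrays, Chchd1 most at 0.95 (SE 0.30, limma adjusted p = 0.24), and Dap3 was at -0.86 in Glia (adjusted p = 0.275). The 11 translation factors had medians of 0.05 in Glia, 0.05 in Autonomic and -0.13 in Mesenchymal arrays. The 19 genes for charging mitochondrial tRNAs, which are aminoacyl-tRNA synthetases and subunits of the glutamyl-tRNA amidotransferase, had -0.33, -0.35 and -0.27, with Fars2 at -1.99 in Glia, Lars2 at -1.02 in Autonomic and the amidotransferase subunit Gatb at -2.03 in Mesenchymal arrays at one end and Tars2 at 0.81, 0.78 and 1.45 at the other. The 25 assembly factors had -0.09, -0.01 and -0.18, and the 16 genes of mitochondrial transcription and RNA stability had -0.19, -0.09 and -0.10. None of the genes in these 5 lists was called in any comparison with NCSCs.

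Among 10 regulators of mitochondrial genes, Mycn, a proto-oncogene that drives growth, was the 1 called. It averaged 7.03 ± 0.444 in Autonomic and 9.11 ± 0.332 in NCSCs arrays (SD, n = 4 each) and fell by 2.07 on the log2 scale (SE 0.30, limma adjusted p = 0.00719). It was also lower in Autonomic than in Mesenchymal arrays, at -2.21 (adjusted p = 0.00434). Nrf1 differed by -1.38 in Glia, -0.92 in Autonomic and -1.20 in Mesenchymal arrays without being called (smallest adjusted p = 0.22). In the same order Myc differed by 0.38, -0.05 and -1.44, Gabpa by 0.00, -0.21 and -0.91, and Yy1 by 0.14, -0.58 and -0.00. These were not called either. Of the 10 regulators, 5 were below 0 in Glia, 9 in Autonomic and 7 in Mesenchymal arrays. The 82 respiratory chain and ATP synthase genes had median changes of -0.11, -0.05 and -0.12, and the 48 cytosolic ribosomal protein genes -0.19, -0.08 and -0.18, with 0 called in each. The mitoribosomal medians were thus below those of both lists in each comparison, as a description with no test between lists. By share of genes below 0 the order differed. Of the cytosolic ribosomal genes, 85.4% were below 0 in Glia, 62.5% in Autonomic and 91.7% in Mesenchymal arrays. The mitoribosomal shares were 73.7%, 64.5% and 81.6%, and those of the respiratory chain list 70.7%, 56.1% and 70.7%.

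**Figure D5:**
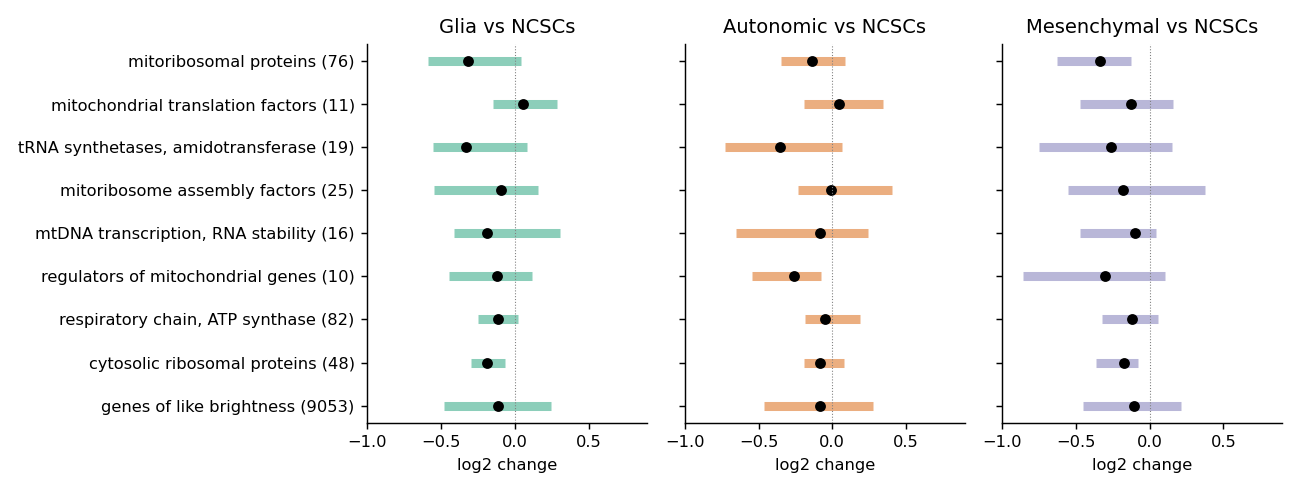
Median log2 change against NCSCs (black point) and middle 50% of the genes (coloured bar) of each gene list in the Glia, Autonomic and Mesenchymal comparisons, with the number of genes measured in brackets. The 76 mitoribosomal genes have medians of -0.32, -0.14 and -0.34, against -0.11, -0.08 and -0.11 for the genes of like brightness.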

How the data were processed

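RNA of 16 samples in 4 groups was hybridised to 1-colour Affymetrix arrays after one-cycle labelling, per the labels' protocols. Per the submitters' processing notes the authors used RMA (version not given), and the deposited values are intensities, 1 for every probe set on every array. Intensities ran from 1.487 to 31600, so they are linear, where log2 values had been assumed. They were log2-transformed without an offset and not normalized again. Arrays have no read depth, and 4 arrays a group limit the precision.

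Of 45101 probe sets, 34958 carried 1 symbol in the platform annotation, 932 several and 9211 were not listed. Those with several or none were left out, among them 4 that name Mrpl30, Mrps34 or Mrpl53 with another gene. Symbols were updated through Entrez identifiers to RefSeq's GRCm38.p6 gene table, which matched 99.4% of these probe sets. For each of 18194 genes the brightest probe set was kept. Of the 76 genes studied, 42 had more than 1 and 9 rest on a probe set of the cross-matching kind.

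Group means were modelled in limma (version 3.58.1, under R 4.3.3; lmFit, then eBayes) from all 16 arrays together, two-sided, with Benjamini-Hochberg adjustment over all genes and calls at an adjusted p under 0.05. The script was tested on simulated data. Unless stated, all p-values are limma's. The genes and lists were chosen with earlier results of these data known. Named genes are those called, the 4 largest differences each way against NCSCs, the 3 brightest and 3 dimmest, and a fixed set of well-studied members, and any others were named after their values were seen. Subunit and bacterial counterpart follow textbook nomenclature. Replicate numbers did not pair the samples, since same-numbered arrays of different groups had deviations correlated at -0.07 to 0.06, with 0 of 24 pairs over 0.1.

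Alternatives were a replicate block, 3 other scalings, an offset of 16, other choices of probe set, a filter on dim genes, eBayes with trend and robust, fits limited to the compared groups, and every array left out in turn. The Gapdh 3′ to 5′ ratio and Xist as covariates, and the genes of like brightness, were added after seeing the data.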

Additional observations from a re-analysis of the deposited data

Results flagged for a closer look

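Among 140 sets of 4 arrays, the levels of the named genes in each group, 5 had 1 array far from the others by Dixon's ratio at its 95% critical value. Chance gives about 1 in 20 such sets. Mrpl27 was at 4.05 on Autonomic array 4, where the other Autonomic arrays had 5.24 to 5.33. Mrpl39 was at 10.5 on the same array, where the others had 11.5 to 11.6. Mrpl54 was at 4.89 on Autonomic array 2, where the others had 3.82 to 4.00, and at 3.79 on Glia array 2, where the others had 4.34 to 4.39. Mrpl46 was at 7.15 on NCSCs array 3, where the others had 6.33 to 6.46.

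The change of Mrps18c against NCSCs differed between Glia and Mesenchymal arrays by -0.89 on the log2 scale (limma adjusted p = 0.0352). This is the same test as Glia against Mesenchymal above and no further result. Its call was lost in 15 of 28 alternatives.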

How the results depend on the processing

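The count of genes called in Glia against NCSCs was 0 in place of 1 with arrays centred on housekeeping genes, with only the 2 groups compared, and with the Gapdh ratio or Xist as a covariate, and 0 to 1 when single arrays were left out. In Glia against Mesenchymal it was 0 with the replicate block, housekeeping centring, without dim genes, with only the 2 groups compared and with Xist, and 0 to 1 when single arrays were left out. In Autonomic against NCSCs and against Mesenchymal it was 0 to 1 when single arrays were left out, with Mrpl18 called without NCSCs array 2 and Mrps25 without Autonomic array 1. With the replicate block the adjusted p of Mrps18c was 0.0461 in Glia against NCSCs and 0.120 against Mesenchymal, and the block changed no other count of these genes. Over all genes, Glia against NCSCs had 52 calls with the block, 30 with the Gapdh ratio and 26 with Xist, in place of 34 higher and 59 lower.

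Housekeeping centring moved the median of the 76 genes to -0.13 in Glia, 0.11 in Autonomic and -0.17 in Mesenchymal arrays, while it moved the median of all genes by 0.19, 0.25 and 0.16. The Gapdh covariate moved it to -0.12 in Glia, 0.0510 in Autonomic and -0.16 in Mesenchymal arrays. Cyclic loess gave -0.18, 0.00489 and -0.21.

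Among named genes, the sign turned in 11 pairs of a change and a setting, over 5 settings, and no called change turned. Some changes turned under more than 1 setting. The Autonomic median turned in the 3 settings above, and that of Glia against Mesenchymal turned without Glia array 4, to -0.01. Mrps5 turned with the mean of all probe sets to -0.12 in Glia and -0.17 in Autonomic, with the Gapdh covariate to -0.64, -0.13 and -0.0483 in Glia, Autonomic and Mesenchymal, and with Xist to -0.32 in Glia. Mrpl47 turned to -0.0795 with the mean of all probe sets and Mrpl48 to 0.26 with Xist, both in Glia. Mrps18c turned to 0.0139 in Autonomic with housekeeping centring, and in Mesenchymal to 0.0294 with that centring and 0.0218 with cyclic loess. The causes were not tested. The median interval half-width was 0.75 on the log2 scale, before any adjustment for the number of genes. Changes much smaller than this were not detectable for a typical gene. A larger change could also go uncalled after adjustment, as did Mrps35 at -1.40 in Autonomic against NCSCs (limma adjusted p = 0.158).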
